A study of Homo sapiens with 6 samples.

Results

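TGF-beta and BMP are secreted growth factors that signal through receptor kinases to SMAD transcription factors. Described here are the RNA levels of 10 genes of that route: the receptors TGFBR1, TGFBR2, BMPR1A and BMPR2, the signalling SMADs SMAD3 and SMAD4, the inhibitory SMADs SMAD6 and SMAD7, and the target genes ID1 and ID3. They were chosen by gene symbol from the 60666 genes listed per library, and all 10 passed the filter on low counts that left 16959 genes for testing. Compared were 3 libraries of HCT116, a human colorectal carcinoma line labelled wild type, and 3 of DNMT3B KO, a derivative of HCT116 whose DNMT3B gene was disrupted. DNMT3B is a DNA methyltransferase, and RNA-seq was done to see how its removal affected gene expression. Neither line was treated, and both were obtained from another laboratory and grown in serum-containing medium, so any ligand in the serum was present for both. The knockout is a single derived line, so an effect of DNMT3B cannot be told apart from other differences between that line and its parent. The sources do not say whether replicates were separate cultures, and p-values then measure only the spread between these libraries.

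In the textbook scheme TGF-beta binds TGFBR2, which activates TGFBR1, and TGFBR1 phosphorylates SMAD2 and SMAD3. BMPs bind receptor pairs such as BMPR2 and BMPR1A, which act on SMAD1, SMAD5 and SMAD9, and both branches share SMAD4 as the partner that carries them to DNA. SMAD6 and SMAD7 are induced by the pathways and inhibit them, and ID1 and ID3 are targets of the BMP branch. HCT116 is a line deficient in mismatch repair, and such lines are known for frameshifts in a run of adenines in the coding sequence of TGFBR2, which truncate the receptor. The TGF-beta branch is a growth brake in normal colon epithelium.

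That run is shown because it is what makes HCT116 a TGFBR2-mutant line. It consists of 10 adenines at chr3:30650380-30650389 in GRCh38, on the plus strand, in exon 3 of 7 of the reference transcript, and touches codons 125 to 128. The stretch chr3:30650365-30650404 of the reference genome reads as follows, with the run in capitals.
TGFBR2 coding run: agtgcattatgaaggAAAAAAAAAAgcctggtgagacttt
The deposited values count reads per gene and hold no sequence, so the level of TGFBR2 RNA given here includes transcripts with any length of this run.

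Of the 10 genes, 3 were higher and 2 lower in DNMT3B KO, and 5 did not pass the test. TGFBR2 fell to 28.1% of its HCT116 level and SMAD3 to 61.3%, while TGFBR1 rose 1.37-fold, BMPR1A 1.23-fold and SMAD7, from a low level, 2.87-fold. BMPR2, SMAD4, SMAD6, ID1 and ID3 were not called. The test was the quasi-likelihood test of edgeR, with p-values adjusted over all tested genes and 0.05 as the threshold for a call. Many genes differ between these lines: 28.1% of all tested genes were called, 12.9% higher (2196 genes) and 15.1% lower (2565 genes), against 5 of the 10 here. With upper-quartile normalization the split over all genes was 2834 higher and 2090 lower, and 4 of the 10 were higher and 2 lower. The median log2 fold change of the 10 was 0.04, beside 0.00 over all tested genes. In 7 of the 10 genes the libraries of the lines did not overlap, as was the case for 45.9% of all tested genes.

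**Figure D1:**
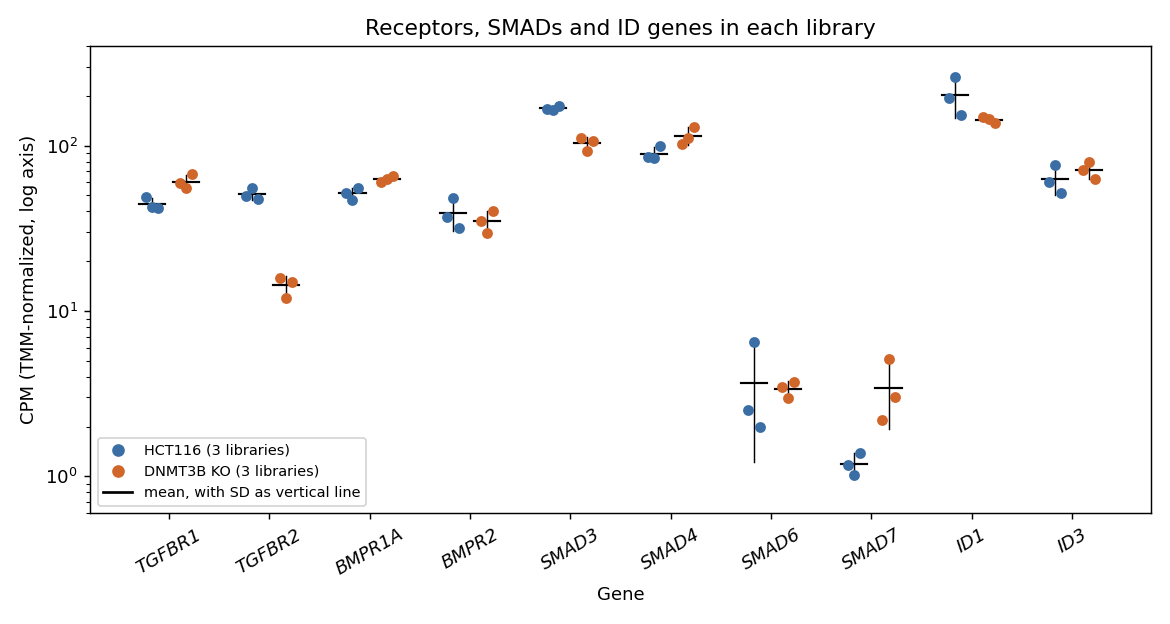
CPM of each of the 10 genes (log axis) in the 3 HCT116 libraries (blue) and the 3 DNMT3B KO libraries (orange), each with replicates 1 to 3 from left to right, the mean as a horizontal bar and the SD as a vertical line. TGFBR2 falls from between 47.5 and 55.5 CPM to between 12.0 and 15.8 CPM, and SMAD7 rises from a low level. HCT116 replicate 2 lies above the other HCT116 libraries for TGFBR2, BMPR2, SMAD6, ID1 and ID3.

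Libraries held 55436267 to 68274783 estimated counts, and levels are given as CPM, a gene's count per fixed library size after TMM normalization. DNMT3B itself was at 30.1 to 39.5 CPM in HCT116 and 2.54 to 2.87 CPM in DNMT3B KO, in accord with the labels. Libraries of HCT116 differed more among themselves than those of DNMT3B KO: the chi-square per degree of freedom was 78.2 between replicates 1 and 2, 38.6 between 1 and 3 and 155 between 2 and 3, beside 20.2 to 31.3 among the DNMT3B KO libraries. HCT116 replicate 2 was the highest HCT116 library for TGFBR2, BMPR2, SMAD6, ID1 and ID3. Results that rest on it are given below with and without it. Of 10 markers of colorectal epithelium 8 were tested, with EPCAM at 284 to 327 CPM in HCT116 and 272 to 307 CPM in DNMT3B KO. CDX1 and CEACAM5 were at or near 0 in both lines. The keratins KRT8, KRT18, KRT19 and KRT20 and the adhesion protein CDH1 were lower in DNMT3B KO and VIL1 was higher, and the 10 markers together fell from 4390 to 5260 CPM to 2120 to 2310 CPM. Markers of fibroblasts summed to 9.98 to 19.9 CPM in HCT116 and 15.3 to 17.9 CPM in DNMT3B KO, most of it COL1A1, with PDGFRB at 2.09 to 2.65 CPM in DNMT3B KO. The immune and blood list summed to 5.77 to 14.2 and 14.7 to 20.3 CPM, mostly CD68, and PTPRC stayed under 0.4 CPM. Endothelial markers summed to at most 1.96 CPM in any library and neural ones to at most 12.5 CPM, most of it MAP2. Single markers called higher in DNMT3B KO were PDGFRB, PTPRC and GFAP, each under 3 CPM, and LUM and SOX10 were at 0 in all libraries. The part of any of these markers in the results was not tested. In bulk RNA, fewer cells of a type and less RNA per cell cannot be told apart.

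TGFBR2, the receptor that binds TGF-beta first, had the largest fall among the 10 genes. The gene (ENSG00000163513) lies on the plus strand at chr3:30606601-30694142 in GRCh38. Its level was 49.3, 55.5 and 47.5 CPM in HCT116 replicates 1, 2 and 3, and 15.8, 12.0 and 15 CPM in DNMT3B KO replicates 1, 2 and 3. Every DNMT3B KO library was far below every HCT116 library, and replicates of a line lay close together. This was a log2 fold change of -1.83 with a standard error of 0.13 (edgeR adjusted p = 4.5e-05), or a 3.55-fold fall, resting on 717 to 3537 counts per library. It ranged from -1.91 to -1.72 over 11 other settings and was called in each of them, with HCT116 replicate 2 left out too.

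TGFBR1, the receptor kinase that TGFBR2 activates, moved the other way. At chr9:99104038-99154192 (ENSG00000106799) on the plus strand, it was at 48.7, 42.7 and 41.7 CPM in HCT116 and at 59.4, 55.2 and 67.2 CPM in DNMT3B KO. The lines did not overlap, but the gap between the nearest libraries was small. TGFBR1 thus had a log2 fold change of 0.45 with a standard error of 0.11 (edgeR adjusted p = 0.016). The call was lost without DNMT3B KO replicate 1 (adjusted p = 0.053) and without DNMT3B KO replicate 3 (adjusted p = 0.072).

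The count ratio of TGFBR2 to TGFBR1 within a library does not depend on the scaling between libraries. It was 1.01, 1.30 and 1.14 in HCT116 and 0.266, 0.218 and 0.224 in DNMT3B KO. Both receptor RNAs were thus counted about equally often in the parent line, and TGFBR2 much less often than TGFBR1 in the knockout. These counts are not divided by transcript length. With 3 libraries a line an exact two-sided permutation test cannot go below p = 0.1, so the ratios are given as a description.

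BMPR1A and BMPR2, the paired BMP receptors, stayed close to their HCT116 levels, and of the pair BMPR1A alone was called. BMPR1A, at chr10:86756596-86932825 (ENSG00000107779) on the plus strand, was at 51.4, 46.9 and 55.7 CPM in HCT116 and 60.6, 62.7 and 65.8 CPM in DNMT3B KO. The lines did not overlap, with a log2 fold change of 0.30 and a standard error of 0.09 (edgeR adjusted p = 0.046). This call sat at the edge of the threshold and was lost in 9 of the 11 other settings, where the adjusted p reached 0.17; it was among them with DESeq2 (adjusted p = 0.055) and without HCT116 replicate 2 (adjusted p = 0.075). Only 79.5% of the stretches of 50 bases in its transcript are unique to it in the annotated transcriptome, since the pseudogenes BMPR1AP1 and BMPR1AP2 share the others, so its count is less certain than those of the other receptors.

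BMPR2, at chr2:202376327-202567751 (ENSG00000204217) on the plus strand, was at 36.9, 48.2 and 31.7 CPM in HCT116 and at 35.2, 29.5 and 40.2 CPM in DNMT3B KO. The lines overlapped, and the highest value was that of HCT116 replicate 2. Between the lines the log2 fold change was -0.16, with a 95% interval of -0.55 to 0.24 (edgeR adjusted p = 0.55). Without HCT116 replicate 2 it was 0.02. The count ratio of BMPR2 to BMPR1A overlapped between the lines, with 0.569 to 1.03 in HCT116 against 0.471 to 0.611 in DNMT3B KO.

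Among the signalling SMADs, SMAD3 fell and SMAD4 did not pass the test. SMAD3, which TGFBR1 phosphorylates, lies at chr15:67063763-67195173 (ENSG00000166949) on the plus strand. It was at 167, 164 and 174 CPM in HCT116 and 111, 92.1 and 107 CPM in DNMT3B KO. The HCT116 libraries were within a few percent of each other and all above those of the knockout. Its log2 fold change was -0.71 with a standard error of 0.10 (edgeR adjusted p = 0.0012), and it was called in all 11 other settings, between -0.76 and -0.62.

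SMAD4, the shared partner of both branches, lies at chr18:51028528-51085045 (ENSG00000141646) on the plus strand. Its level was 84.9, 83.7 and 98.7 CPM in HCT116 and 102, 111 and 130 CPM in DNMT3B KO. All DNMT3B KO libraries were above all HCT116 libraries, by little for the nearest pair. The log2 fold change of 0.36 had a standard error of 0.12 and just missed the threshold (edgeR adjusted p = 0.054). It passed with upper-quartile normalization (adjusted p = 0.019) and without HCT116 replicate 3 (adjusted p = 0.022). An overlapping gene model on the same strand, ENSG00000267699, shares sequence with SMAD4, whose transcript is unique over 91.7% of its stretches of 50 bases.

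The count ratio of SMAD3 to SMAD4 was 1.97, 1.95 and 1.77 in HCT116 and 1.09, 0.832 and 0.821 in DNMT3B KO. For SMAD3 to SMAD2, the other SMAD that TGFBR1 phosphorylates, HCT116 libraries lay between 1.38 and 1.56 and DNMT3B KO libraries between 0.875 and 1.07. Neither ratio overlapped between the lines, and SMAD3, ahead of SMAD4 and SMAD2 in every HCT116 library, was counted less often than either in 2 of the 3 knockout libraries. These counts are not divided by transcript length, which is 6464 bases for SMAD3, 8772 for SMAD4 and 34626 for SMAD2. Their order is therefore not an order of RNA levels. Per kilobase, the mean of SMAD3 in DNMT3B KO stayed above that of SMAD4, with overlapping libraries. Such a value was not computed for SMAD2.

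**Figure D2:**
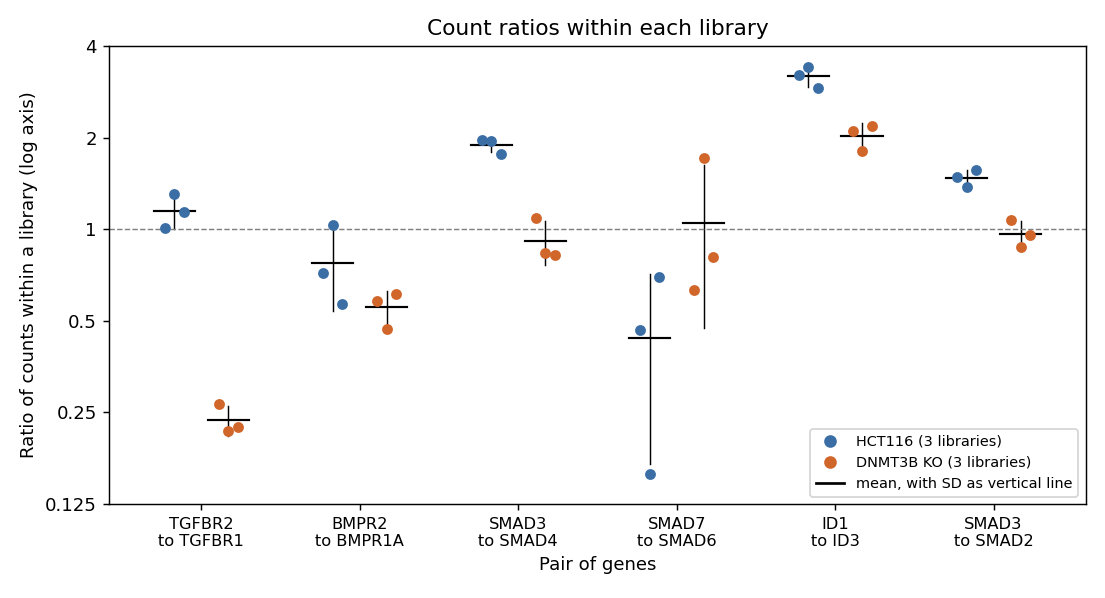
Count ratio of 6 gene pairs within each library (log axis), for HCT116 (blue) and DNMT3B KO (orange), with the mean and SD in black and a dashed line at 1. TGFBR2 to TGFBR1, SMAD3 to SMAD4, ID1 to ID3 and SMAD3 to SMAD2 do not overlap between the lines, whereas BMPR2 to BMPR1A and SMAD7 to SMAD6 do.

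The inhibitory SMADs were the lowest of the 10 genes. SMAD7, which blocks the receptors of both branches, lies at chr18:48919853-48950965 (ENSG00000101665) on the minus strand. It was at 1.17, 1.02 and 1.39 CPM in HCT116 and at 2.19, 5.10 and 3.00 CPM in DNMT3B KO. The knockout libraries were all higher but spread widely, with DNMT3B KO replicate 2 at the top. For SMAD7 the log2 fold change was 1.52 with a standard error of 0.34 (edgeR adjusted p = 0.013), on 65 to 304 counts per library. The call was lost without HCT116 replicate 1 (adjusted p = 0.053), and without DNMT3B KO replicate 2 the value was 1.12 (adjusted p = 0.045).

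SMAD6, which acts mainly on the BMP branch, lies at chr15:66702236-66782849 (ENSG00000137834) on the plus strand. It was at 2.51, 6.47 and 2.0 CPM in HCT116 and 3.48, 2.99 and 3.70 CPM in DNMT3B KO. HCT116 replicate 2 was the highest of all libraries and the other HCT116 libraries were the lowest, so the lines overlapped through a single library. Its log2 fold change was -0.11 with a 95% interval of -1.07 to 0.85 (edgeR adjusted p = 0.87), and without HCT116 replicate 2 it was 0.57 (adjusted p = 0.071). A difference of SMAD6 was therefore not detectable with these libraries, and its direction depended on HCT116 replicate 2. The count ratio of SMAD7 to SMAD6 overlapped between the lines, with 0.157 to 0.696 in HCT116 against 0.631 to 1.71 in DNMT3B KO, with the lowest ratio in HCT116 replicate 2.

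The target genes ID1 and ID3 encode helix-loop-helix proteins that bind E proteins and keep them from DNA. ID1, at chr20:31605283-31606515 (ENSG00000125968) on the plus strand, was at 193, 258 and 152 CPM in HCT116 and 149, 144 and 137 CPM in DNMT3B KO. The HCT116 libraries spread widely, and their lowest was just above the highest of the knockout. The log2 fold change of -0.49 had a standard error of 0.18 and missed the threshold (edgeR adjusted p = 0.075). It passed with DESeq2 (adjusted p = 0.030), when low genes were kept (adjusted p = 0.032) and without HCT116 replicate 3 (adjusted p = 0.0052). Without HCT116 replicate 2 it shrank to -0.27 (adjusted p = 0.082).

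ID3, at chr1:23557926-23559501 (ENSG00000117318) on the minus strand, was at 60.2, 75.8 and 51.9 CPM in HCT116 and at 71.0, 80.0 and 62.9 CPM in DNMT3B KO. The lines overlapped, and replicate 2 was the highest library in each. The log2 fold change was 0.19 with a 95% interval of -0.16 to 0.54 (edgeR adjusted p = 0.40), and 0.34 without HCT116 replicate 2 (adjusted p = 0.055). The count ratio of ID1 to ID3 was 3.21, 3.40 and 2.92 in HCT116 and 2.10, 1.80 and 2.18 in DNMT3B KO. The libraries of the lines did not overlap in this ratio, including HCT116 replicate 2, in which both genes were the highest of the HCT116 libraries.

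**Figure D3:**
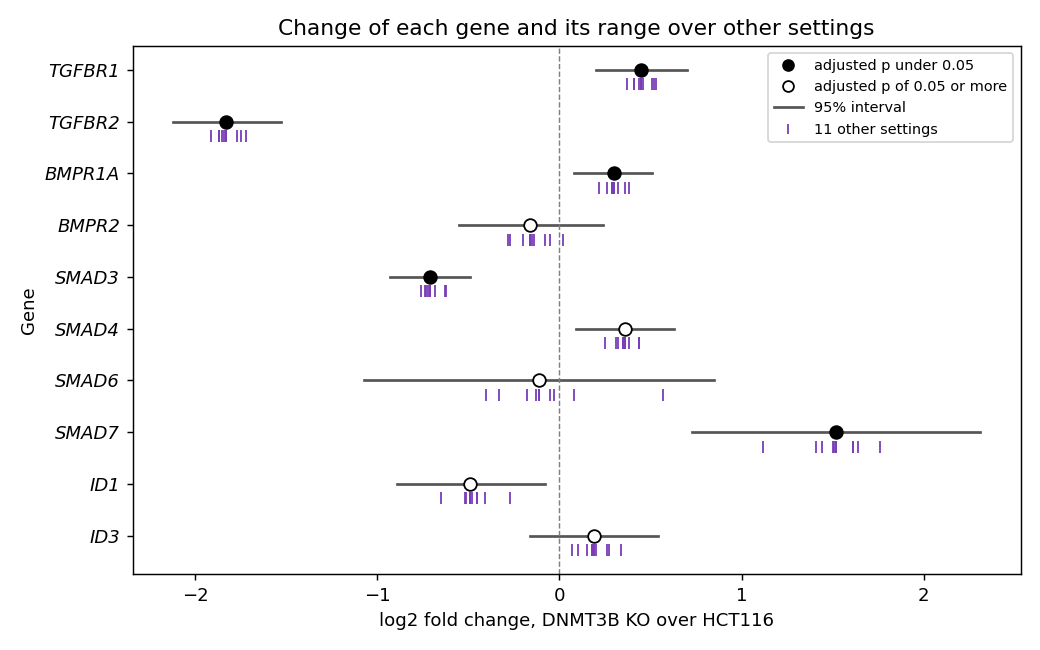
Log2 fold change of DNMT3B KO over HCT116 for each of the 10 genes, with its 95% interval as a line, filled where the adjusted p was under 0.05, and with purple ticks for the 11 other settings. Over these settings SMAD6 ranges from -0.40 to 0.57 and BMPR2 from -0.28 to 0.02, while each of the other genes keeps its sign.

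Divided by the length of the reference transcript, the levels of the genes can be compared roughly with each other, as the order depends partly on the length used. In HCT116, CPM per kilobase was 204 ± 54.5 for ID1, 65.9 ± 12.8 for ID3 and 26.0 ± 0.865 for SMAD3 (SD, n = 3). Next came TGFBR2 at 11.2 ± 0.934, SMAD4 at 10.2 ± 0.950, BMPR1A at 8.0 ± 0.684 and TGFBR1 at 6.83 ± 0.579. BMPR2 was at 3.23 ± 0.698, SMAD6 at 0.957 ± 0.638 and SMAD7 at 0.358 ± 0.0553. Neighbours in this order whose libraries overlapped were TGFBR2 with SMAD4, and BMPR1A with TGFBR1. Overlap here is that of the ranges over the libraries of a line, and these values were not compared within a library. In DNMT3B KO the order from the top was ID1, ID3, SMAD3, SMAD4, BMPR1A, TGFBR1, TGFBR2, BMPR2, SMAD7 and SMAD6. There TGFBR2, at 3.15 ± 0.440 CPM per kilobase, overlapped with BMPR2 at 2.90 ± 0.440, and SMAD3 at 16.0 ± 1.51 overlapped with SMAD4 at 13 ± 1.65. SMAD7, at 1.03 ± 0.449, overlapped with SMAD6 at 0.885 ± 0.0959, and BMPR1A at 9.82 ± 0.405 overlapped with TGFBR1 at 9.33 ± 0.934. With the length of all annotated exons in place of the reference transcript, ID1, ID3 and SMAD3 still led in both lines, while other ranks moved. In HCT116 SMAD4 moved from rank 5 to rank 7 and TGFBR1 from 7 to 5. In DNMT3B KO SMAD4 moved from rank 4 to 6, TGFBR1 from 6 to 4, TGFBR2 from 7 to 8 and BMPR2 from 8 to 7.

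The other genes of the pathways put these values in context. Calls in their lists stand beside those over all tested genes, of which 12.9% were higher and 15.1% lower. Of the other 4 SMADs, SMAD1 and SMAD9, which carry BMP signals, were higher and SMAD5, which does so too, was lower, while SMAD2 was not called. SMAD1 was at 33.0 to 33.7 CPM in HCT116 and 39.8 to 44.1 CPM in DNMT3B KO, a log2 fold change of 0.31 (edgeR adjusted p = 0.025). SMAD9 rose from 1.75 to 3.42 CPM to 4.69 to 6.41 CPM (log2 fold change 0.94, edgeR adjusted p = 0.039). SMAD5, at 115 to 124 CPM in HCT116, fell to 76.9 to 96.5 CPM (log2 fold change -0.45, edgeR adjusted p = 0.013). The calls of SMAD1 and SMAD9 were lost without HCT116 replicate 1 and without each of the DNMT3B KO replicates, where adjusted p reached 0.11 and 0.14, that of SMAD1 also when low genes were kept (adjusted p = 0.063), and that of SMAD5 without DNMT3B KO replicate 2 or 3 (adjusted p = 0.059 in both cases). SMAD2 averaged 114 ± 3.67 CPM in HCT116 against 107 ± 4.27 CPM in DNMT3B KO (SD, n = 3 each), a log2 fold change of -0.10 (edgeR adjusted p = 0.39 over all genes). The list's median log2 fold change was 0.11.

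Of 11 other receptors 9 were tested, and edgeR called 4 higher and 0 lower, with a median log2 fold change of 0.31. Over all tested genes, 12.9% were called higher. The activin type II receptor ACVR2A rose from 13.8 to 16.7 CPM to 27.4 to 29.3 CPM (log2 fold change 0.91, edgeR adjusted p = 0.00063). ACVR2B, its close relative, rose from 42.3 to 51.9 CPM to 62.3 to 70.7 CPM (log2 fold change 0.44, edgeR adjusted p = 0.018), a call lost without HCT116 replicate 1 (adjusted p = 0.053) and without DNMT3B KO replicate 2 (0.052) or 3 (0.075). ACVR1, a type I receptor of the BMP branch, was just inside the threshold, at 23.5 to 24.2 CPM against 27.2 to 32.8 CPM (log2 fold change 0.31, edgeR adjusted p = 0.050), and its call was lost in 9 of 11 other settings. The fourth, ENG, a co-receptor best known from endothelium, stayed under 0.5 CPM. ACVRL1, ACVR1B, ACVR1C, TGFBR3 and RGMB were not called, and the BMP type I receptor BMPR1B was at or near 0 in all libraries. TGFBR3, a co-receptor for TGF-beta, had an unadjusted p under 0.05 in edgeR and was called lower by DESeq2 (adjusted p = 0.045), which also called ACVRL1 higher. Of the 13 receptors tested with the 4 above, edgeR thus called 1 lower, TGFBR2, and DESeq2 called 2 lower, TGFBR2 and TGFBR3. Over all tested genes, edgeR called 15.1% lower.

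Of 17 regulators of the pathway, all tested, 3 rose and 3 fell, with a median log2 fold change of -0.05. Called were thus 35.3% of the list, beside 28.1% of all tested genes. The ubiquitin ligase SMURF2, which marks SMADs and receptors for degradation, fell from 388 to 414 CPM to 183 to 236 CPM (log2 fold change -0.90, edgeR adjusted p = 0.00083). BAMBI, a decoy receptor, fell from 4.10 to 5.67 CPM to 2.38 to 2.83 CPM (log2 fold change -0.92, edgeR adjusted p = 0.011), a call lost without DNMT3B KO replicate 1 (adjusted p = 0.053) or 2 (0.051). PMEPA1, a TGF-beta target that dampens the branch, rose from 0.406 to 0.455 CPM to 1.74 to 2.72 CPM (log2 fold change 2.27, edgeR adjusted p = 0.00093). SKIL, a repressor of SMAD complexes, rose from 10.5 to 13.2 CPM to 20.7 to 24.1 CPM (log2 fold change 0.94, edgeR adjusted p = 0.0012). LEMD3 was the other regulator that rose and STRAP the other that fell.

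Of 14 other target genes 12 were tested, and 2 rose and 4 fell, with a median log2 fold change of 0.16. Over all tested genes, 12.9% were called higher and 15.1% lower. ID2, a relative of ID1 and ID3, fell from 44.3 to 77.9 CPM to 6.27 to 10.3 CPM (log2 fold change -2.89, edgeR adjusted p = 0.00016). LTBP2, a matrix protein related to those that hold latent TGF-beta, fell from 3.53 to 4.71 CPM to 0.922 to 0.998 CPM (log2 fold change -2.08, edgeR adjusted p = 0.00031). ATOH8, a transcription factor that BMPs induce, rose from 0.120 to 0.179 CPM to 1.11 to 2.20 CPM (log2 fold change 3.35, edgeR adjusted p = 0.00057). HEY1 also rose and KLF10 and JUNB also fell, and the fourth gene of the ID family, ID4, was too low to test.

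Of 25 ligands and antagonists 17 were tested, and 3 rose and 3 fell, with a median log2 fold change of -0.21. Called were thus 35.3% of those tested, beside 28.1% of all tested genes. TGFB2, a TGF-beta ligand, rose from 0.157 to 0.286 CPM to 27.4 to 38.8 CPM (log2 fold change 7.21, edgeR adjusted p = 1.5e-06). BMP4, a BMP ligand, rose from 87.1 to 97.1 CPM to 463 to 520 CPM (log2 fold change 2.41, edgeR adjusted p = 2.4e-06). GDF15, a stress-induced member of the ligand family, fell from 79.4 to 141 CPM to 3.88 to 6.52 CPM (log2 fold change -4.52, edgeR adjusted p = 2.4e-05). FSTL3, which traps activins, fell from 20.9 to 24.6 CPM to 12.9 to 15.2 CPM (log2 fold change -0.66, edgeR adjusted p = 0.0048). FST rose and BMP7 fell as well. TGFB1, at 47.1 to 56.7 CPM in HCT116 and 35.6 to 50.7 CPM in DNMT3B KO, was not called.

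Of the 3 E proteins, the partners that ID proteins bind, TCF4 was too low to test and 0 of the other two were called by edgeR or by DESeq2. TCF3 was at 162 to 207 CPM in HCT116 and 165 to 176 CPM in DNMT3B KO (edgeR adjusted p = 0.49). TCF12 was at 93.7 to 108 CPM and 115 to 123 CPM, a log2 fold change of 0.25, and was the 1 gene of the list with an unadjusted p under 0.05 (edgeR adjusted p = 0.071). It passed with upper-quartile normalization (adjusted p = 0.021) and without HCT116 replicate 3 (adjusted p = 0.034).

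**Figure D4:**
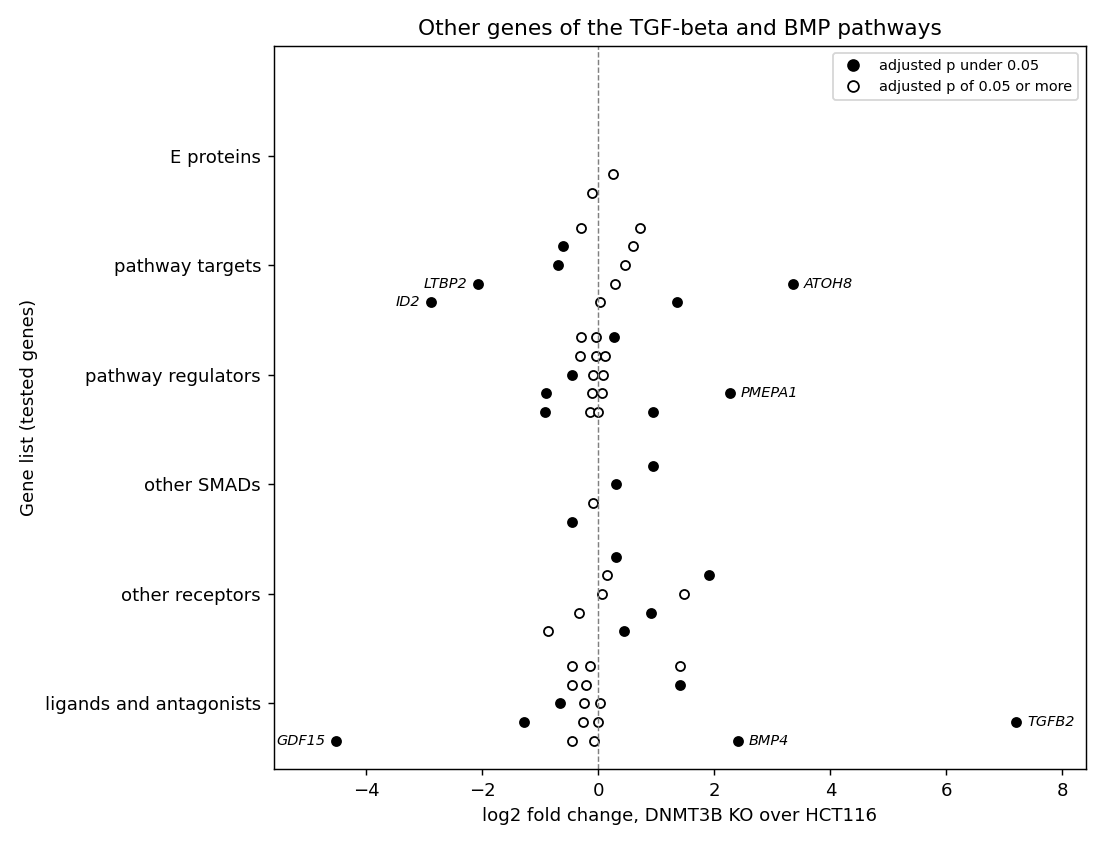
Log2 fold change of DNMT3B KO over HCT116 of the tested genes in 6 lists of other pathway genes, filled where the adjusted p was under 0.05, with the named genes of largest change labelled. The ligands spread widest, from GDF15 at -4.52 to TGFB2 at 7.21, while most regulators lie near 0.

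DNMT3B methylates CpG sites, so the CpG content of the promoters is given as context. RefSeq windows of the 250 bases before a start were found for all 10 genes, and a single window per gene was used. For 9 genes this window lies at the start of the reference transcript, the exception being BMPR1A. TGFBR1 has 8 windows, SMAD3 5, SMAD7 3 and TGFBR2 2, and their further windows are not described here. The windows used held 36 CpGs in BMPR2 and SMAD3, 35 in TGFBR1, 25 in SMAD4 and SMAD6, 24 in ID3, 19 in ID1, 13 in SMAD7, 12 in TGFBR2 and 9 in BMPR1A. The median over 35097 windows was 11. Of the genes that fell, SMAD3 had 36 and TGFBR2 12, and of those that rose, TGFBR1 had 35, SMAD7 13 and BMPR1A 9. A link between CpG content and these changes was not tested. No methylation was measured in these files. SMAD3, with more CpGs than SMAD7, fell and SMAD7 rose, whereas TGFBR1, with more CpGs than TGFBR2, rose and TGFBR2 fell. The windows of SMAD3 and SMAD7 are shown to let the difference in CpG density be seen, with each CpG in capitals. They are from GRCh38, at chr15:67065352-67065601 on the plus strand and chr18:48950966-48951215 on the minus strand, and are written in the direction of the gene.
SMAD3 promoter: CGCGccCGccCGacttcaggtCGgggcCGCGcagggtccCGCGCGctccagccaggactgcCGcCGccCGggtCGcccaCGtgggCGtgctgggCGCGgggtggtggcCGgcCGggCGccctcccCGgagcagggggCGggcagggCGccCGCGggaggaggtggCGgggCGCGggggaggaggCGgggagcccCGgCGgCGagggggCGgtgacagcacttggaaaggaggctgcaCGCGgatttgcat
SMAD7 promoter: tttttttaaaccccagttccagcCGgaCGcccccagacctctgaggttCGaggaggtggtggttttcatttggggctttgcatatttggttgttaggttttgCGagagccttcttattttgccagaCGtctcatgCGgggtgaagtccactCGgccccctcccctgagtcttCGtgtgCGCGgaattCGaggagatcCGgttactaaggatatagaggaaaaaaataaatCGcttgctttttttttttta

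SMADs bind short DNA elements, and the letters of the elements named below were searched in the same windows. Other SMAD elements, and sequence outside these windows, were not searched. The palindromic SMAD element GTCTAGAC, which reads the same on both strands, was found in 1 of the 10 windows, that of SMAD6, and in 0.182% of all windows. It lies 12 to 5 bases before the start of SMAD6, within chr15:66702213-66702235 on the plus strand, and is shown in capitals.
SMAD6 element: gccgccaaagtGTCTAGACtggc
The GC-rich element GGCGCC, also a palindrome, was found in the windows of BMPR2, SMAD3 and SMAD4, 3 of 10, and in 16.4% of all windows. A match describes these letters and not binding.

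Genes that start within 500000 bases of a start of one of the 10 were also counted. Of 77 such pairs of a gene and a neighbour with a test, 7 neighbours were higher and 18 lower, which is 32.5% called, beside 28.1% of all tested genes. SMAD3 is itself among the neighbours of SMAD6, 361527 bases away, and fell while SMAD6 was not called. TGFBR2 has a single tested neighbour, AC096921.2, which starts 91060 bases away and was at 0.566 CPM on average in HCT116 and 0.0890 CPM in DNMT3B KO (log2 fold change -2.67, edgeR adjusted p = 0.0057). Of the 6 tested neighbours of BMPR2, 0 were called by edgeR, and 1, ICA1L, had an unadjusted p under 0.05 and was called higher by DESeq2. BMPR1A has 15 tested neighbours, of which 1 rose and 5 fell. One of these, ADIRF, chosen after its values were seen, starts 211836 bases from BMPR1A and fell from a mean of 169 CPM to 0.174 CPM (log2 fold change -9.96, edgeR adjusted p = 7e-06), whereas BMPR1A itself was slightly higher.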

How the data were processed

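RNA was measured in 3 HCT116 and 3 DNMT3B KO libraries made with a stranded mRNA kit. The authors used STAR for alignment of paired-end reads to hg38 and Salmon to quantify Ensembl transcripts. Per library, they deposited estimated counts per gene, corrected for gene length. Whether counting used strand is not given in the sources used here. Splitting of reads among similar transcripts was thus the authors' estimate, and it could move values of genes with pseudogenes.

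The estimated counts were rounded. Low genes were removed with filterByExpr, libraries were scaled by TMM, and lines were compared with edgeR 4.0.16 (R 4.3.3), using its quasi-likelihood F test, a model of genotype alone and Benjamini-Hochberg adjustment. The study's methods use DESeq2, which was run as an alternative (Wald test, version 1.42.0). Other alternatives were RLE and upper-quartile normalization, no filter, a replicate block and each library left out. The fit was tested on simulated data.

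The 10 genes and the pathway lists were chosen with earlier results of these data known. Named from each other list were called genes with a mean of at least 1 CPM in a line, at most 4 by smallest adjusted p, and all tested SMADs and E proteins; other called genes are given by name only. TGFB1, TGFBR3, ICA1L and ADIRF were added after their values were seen. 1 gene each of the target list and the immune and blood list is not reported here, and the printed counts, medians and sums of those lists leave these genes out. Gene positions came from GENCODE 44, on the same build but newer, promoter windows from RefSeq on GRCh38.p14, and the TGFBR2 stretch from hg38. Uniqueness was the share of 50-base stretches of a gene's reference transcript found in no other gene.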

Additional observations from a re-analysis of the deposited data

How the results depend on the processing

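Of the 10 genes, TGFBR2 and SMAD3 kept their direction and their call in all 11 alternatives. TGFBR1 lost its call in 2, SMAD7 in 1 and BMPR1A in 9, while SMAD4 and ID1 gained one in 3 each. With a library left out, the log2 fold change of BMPR2 ranged from -0.28 (without HCT116 replicate 3) to 0.02 (without HCT116 replicate 2), and that of SMAD6 from -0.40 to 0.57 (the same libraries), and with the replicate block SMAD6 was at 0.08. With a single library left out, the genes called higher over all tested genes ranged from 1283 to 2868, those called lower from 1758 to 3143, and the members of the 10 called higher from 1 to 4. In the same way, called genes ranged from 2 to 5 for the other receptors, from 0 to 3 for the other SMADs, from 3 to 7 for the regulators and from 0 to 1 for the E proteins. Without HCT116 replicate 1, and without each DNMT3B KO replicate, 1287, 1322, 1283 and 1337 genes were called higher. Upper-quartile normalization called 1 E protein. The causes were not tested.

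Replicate numbers are shared by the lines but no source says that they pair libraries. Deviations of same-numbered libraries from their line's mean correlated at 0.064, -0.01 and 0.122 for replicates 1, 2 and 3. Differently numbered libraries correlated at -0.121 to 0.084. With 3 libraries a line, values this near 0 cannot decide whether the numbers mark pairs. As no source says so, the libraries were not treated as pairs in the main model. With the replicate block, 1890 genes were higher and 2324 lower, BMPR1A (adjusted p = 0.062), ACVR1 (0.075) and SMAD1 (0.055) lost their calls and SMAD4 (adjusted p = 0.031) gained one. Genes at the level of SMAD6 and SMAD7 rest on as few as 65 counts in a library, and with 3 libraries a line small changes of such genes were not detectable.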
